A study of Caenorhabditis elegans with 12 samples.

Results

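The comparison is of adult Caenorhabditis elegans given RNA interference (RNAi) against hsf-1 together with hsp-6 with adults given RNAi against hsp-6 alone. It takes 6 of the 12 arrays of the study, 3 in each group, chosen by sample title. All worms were of the wild-type strain N2, were placed on HT115 bacteria at day 1 of adulthood for RNAi by feeding, and were collected after 3 days as day 3 adults. The hsp-6 group received hsp-6 RNAi and the hsp-6;hsf-1 group received both RNAi treatments, so that hsp-6 RNAi is common to both. The other 6 arrays, 3 with the empty vector and 3 with hsp-6;dve-1 RNAi, entered the same variance model and are given as reference levels. Total RNA of whole worms was hybridised to Affymetrix 3' arrays, and values are on the log2 scale of GCRMA, a method that corrects background and summarises the probes of each probe set. The labels do not say that replicates were separate cultures, and p-values then measure only the spread between these samples. Eggs and larvae were washed off every other day, and in whole worms fewer cells of a type and less RNA per cell cannot be told apart.

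HSP-6 is the mitochondrial Hsp70 chaperone, which helps to pull proteins into mitochondria and to fold them there. HSF-1 is the transcription factor that switches on heat shock genes when unfolded proteins accumulate in the cytosol, and in C. elegans it is also needed for development and lifespan. DVE-1 is a homeodomain protein that acts in the mitochondrial unfolded protein response. The study's design asks which of the genes altered by hsp-6 RNAi are under the control of hsf-1, of dve-1 or of both.

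Of 22548 probe sets other than controls, 12057 had a log2 value above 4 in at least 3 of the 12 arrays and were tested, and 9172 genes were represented by a symbol alone. With limma at an adjusted p below 0.05, 351 probe sets were higher (2.91% of those tested) and 333 were lower (2.76%) in the hsp-6;hsf-1 group, 5.67% together. The higher ones stood for 268 genes and the lower ones for 252, and 327 and 217 probe sets changed more than 2-fold. Counts called in the gene lists below are to be read against 2.91% higher and 2.76% lower. A probe set above log2 4 only in the double RNAi arrays, or only in the hsp-6 arrays, could pass the filter through those arrays. The median difference of all tested probe sets was -0.10 on the log2 scale, and 41.5% of differences lay above 0. Of the 333 that fell, 240 ended below the empty vector mean, and of the 351 that rose, 324 ended above it.

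**Figure D1:**
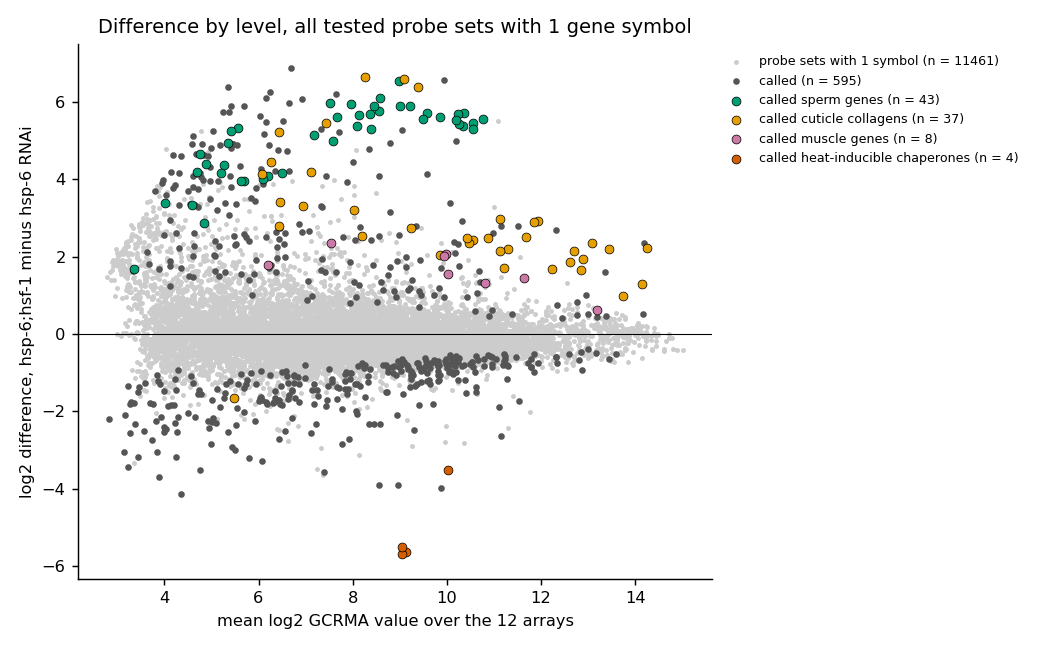
Difference in log2 value between hsp-6;hsf-1 and hsp-6 RNAi (y axis) against the mean log2 value (x axis). Points are the tested probe sets with a single symbol, and the 595 called ones among these are marked. The rises reach farther from 0 than the falls.

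The arrays of the hsp-6;hsf-1 group did not lie together. On the first principal component, which held 56.5% of the variance, replicates 1, 2 and 3 lay at 46.1, 2.18 and 104.3, while the hsp-6 arrays lay between -44.3 and -43.2. Each hsp-6;hsf-1 array was closest to an array labelled hsp-6;dve-1 rather than to one of its own group, with mean absolute log2 differences of 0.271, 0.305 and 0.366 against 0.414, 0.414 and 0.649. The closest pair of all 12 arrays was hsp-6 replicates 1 and 3, at 0.149. The arrays labelled hsp-6;dve-1 were not lower than the hsp-6 arrays at dve-1, by the group mean of either probe set. The values are given with the targeted genes. Leaving the hsp-6;dve-1 arrays out of the fit, a choice made after seeing the data, gave 914 called probe sets, 501 higher and 413 lower. Without hsp-6 replicate 1, 2 or 3 the number of called probe sets fell from 684 to 48, 89 and 35. It fell to 35 without hsp-6;hsf-1 replicate 1 and to 165 without replicate 3, and it rose to 1433 without replicate 2. For the arrays labelled hsp-6;dve-1 it was 414 with replicate 1 left out and 1104 with replicate 2 left out. Of 99 named calls, 14 held without any single array, and these are pointed out as they appear. The others were lost mostly without an hsp-6 array (77 to 84 calls lost), without hsp-6;hsf-1 replicate 1 (84) or without replicate 3 (66).

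The targeted genes were read first. The hsp-6 probe set read 6.96, 6.97 and 6.60 with hsp-6 RNAi and 10.08, 9.29 and 9.52 with hsp-6;hsf-1 RNAi, and the empty vector arrays read 11.30, 10.96 and 11.10. The hsp-6 transcript was thus higher in every double RNAi array than in every hsp-6 RNAi array, by 2.79 (SE 0.30, adjusted p = 0.0024), or 6.91-fold, and this call held without any single array. Its other probe set differed by 1.99 (SE 0.40, adjusted p = 0.023). Against empty vector hsp-6 was called lower in the hsp-6 group (difference -4.28, adjusted p = 0.00019) but not in the hsp-6;hsf-1 group (-1.49, adjusted p = 0.085). Every difference from the hsp-6 group given here moves with this one, and its part in them was not tested.

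The knockdown of hsf-1 was not called. Its probe sets read 7.94, 7.63 and 7.90 and 7.52, 7.28 and 7.49 with hsp-6 RNAi, and 6.84, 7.24 and 6.68 and 6.78, 7.09 and 6.08 with hsp-6;hsf-1 RNAi. The groups did not overlap at either probe set, as for 34.4% of all probe sets tested. The differences were -0.90 (SE 0.32, adjusted p = 0.12) and -0.78 (SE 0.41, adjusted p = 0.26). dve-1, which neither treatment targets, read 6.25 and 5.87 in hsp-6;hsf-1 replicates 1 and 2 and 8.18 in replicate 3, against 5.09 to 5.83 with hsp-6 RNAi, and its difference of 1.23 was not called (adjusted p = 0.21). The same probe set read 8.15, 8.90 and 7.14 where the label gives dve-1 as a target. The dimmer dve-1 probe set moved less. It read 4.64, 4.59 and 4.59 with hsp-6 RNAi, 4.64, 4.64 and 5.19 with hsp-6;hsf-1 RNAi, and 4.64, 5.31 and 4.59 in the hsp-6;dve-1 arrays. In those 3 arrays the hsf-1 probe sets read 8.12, 6.87 and 8.04 and 7.48, 6.17 and 7.62, so that replicate 2 lay within the range of the hsp-6;hsf-1 arrays at both. Whether the labels of single double RNAi arrays are right was not tested, and the groups are used as labelled.

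The heat-inducible chaperones held the 3 largest falls. Of 4 genes in this list 4 fell, with a median difference of -5.58 against -0.10 over all probe sets. hsp-16.41, a small heat shock protein of the cytosol, read 13.27, 12.76 and 12.98 with hsp-6 RNAi and 6.12, 6.63 and 9.16 with hsp-6;hsf-1 RNAi. With empty vector it read 7.74, 8 and 6.10, so that the double RNAi arrays lay near the empty vector level, with replicate 3 above it. The difference was -5.70 (SE 0.71, adjusted p = 0.0051), a 52-fold lower level. hsp-16.2, a further member of the family, read 13.12, 12.88 and 13.20 with hsp-6 RNAi and 6.34, 6.32 and 9.60 with hsp-6;hsf-1 RNAi, a difference of -5.65 (SE 0.75, adjusted p = 0.006).

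hsp-70, an inducible cytosolic Hsp70, went from 13.13, 12.62 and 13.03 to 7.16, 6.10 and 9.01, a difference of -5.50 (SE 0.57, adjusted p = 0.0023). Again replicate 3 was the highest of the double RNAi arrays, and the groups were far from overlapping. These 3 calls held with each array left out in turn, with adjusted p up to 0.034, 0.042 and 0.017 for hsp-16.41, hsp-16.2 and hsp-70. hsp-17, a small heat shock gene, went from 13.04, 12.22 and 12.80 to 7.99, 8.91 and 10.58, a difference of -3.53 (SE 0.75, adjusted p = 0.026). The hsp-17 call was lost when any 1 hsp-6 array or hsp-6;hsf-1 replicate 1 was left out. The outlying array of each double group was taken to be hsp-6;hsf-1 replicate 3 and hsp-6;dve-1 replicate 2, a choice made after seeing the data. Without both, adjusted p were 0.00062, 1.4e-06, 0.00015 and 0.02 for hsp-16.41, hsp-16.2, hsp-70 and hsp-17. For these 4 genes the hsp-6;hsf-1 array left out was the one nearest to the hsp-6 arrays.

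**Figure D2:**
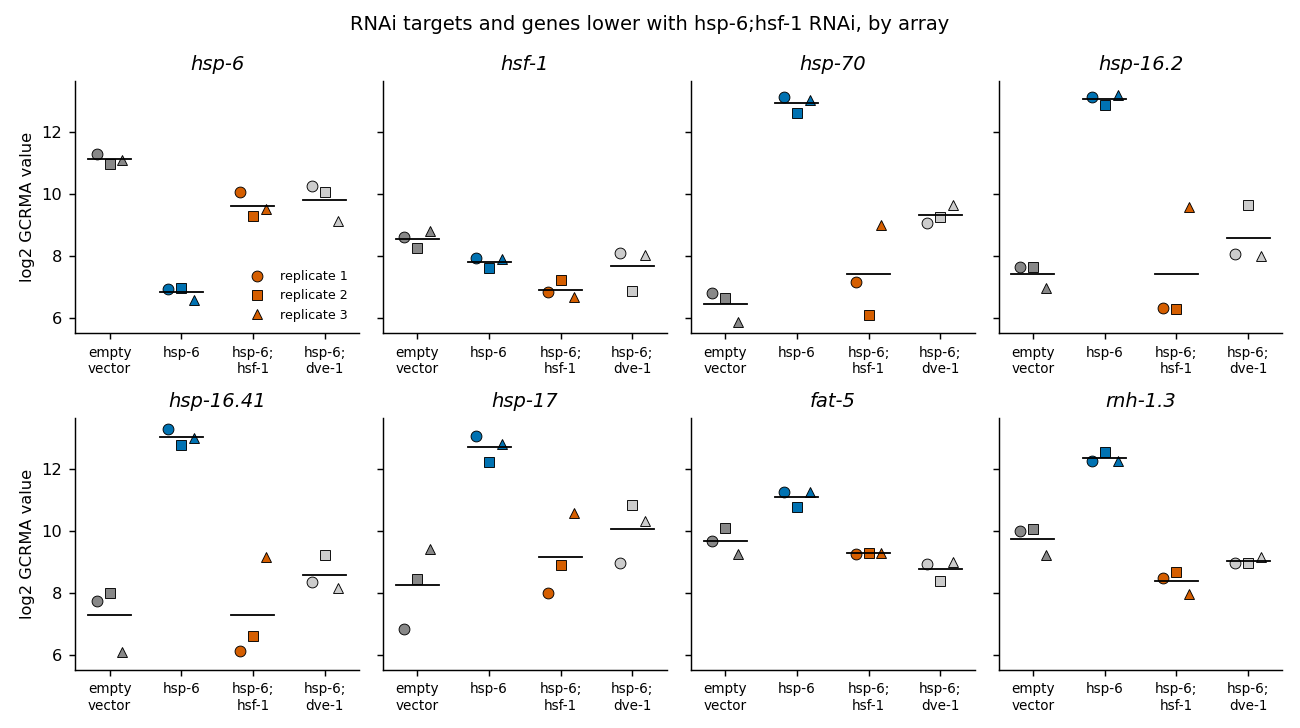
Log2 GCRMA value (y axis) of hsp-6, hsf-1, the heat-inducible chaperones, fat-5 and rnh-1.3 in each of the 12 arrays, by RNAi group (x axis). There is 1 point per array and a line at the group mean. The hsp-6 arrays stand at 12.22 and above for hsp-17 and hsp-70, hsp-16.2 and hsp-16.41, and the hsp-6;hsf-1 arrays at 10.58 and below.

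Other chaperones moved far less. Among 7 other small heat shock genes 1 rose and none fell, with a median of 0.50. The riser was hsp-12.1, which read 4.21, 4.5 and 3.97 with hsp-6 RNAi and 5.71, 5.48 and 6.29 with hsp-6;hsf-1 RNAi, a difference of 1.60 (SE 0.35, adjusted p = 0.029). Of 15 tested constitutive cytosolic chaperones none was called, although 6 had an unadjusted p below 0.05, and all 15 differences lay below 0 with a median of -0.35. Among them hsp-90, the cytosolic Hsp90 whose value was looked up after the data had been seen, read 13.77, 13.57 and 13.83 against 13.23, 13.35 and 12.93, a difference of -0.55 (SE 0.15, adjusted p = 0.055). Of 14 subunits of the cytosolic chaperonin and prefoldin 1 fell, cct-3, from 6.24, 5.55 and 6.23 to 4.5, 5 and 3.92 (difference -1.53, SE 0.32, adjusted p = 0.025).

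The genes listed for the mitochondrial and endoplasmic reticulum stress responses did not pass the test. These lists do not hold the RNAi targets hsp-6, hsf-1 and dve-1, given above, of which hsp-6 was called. Of 21 mitochondrial chaperones, proteases and import factors none was called, 2 were higher and 2 lower at an unadjusted p below 0.05, and the median was -0.10. hsp-60, the mitochondrial chaperonin, read 8.33, 7.64 and 8.59 with hsp-6 RNAi and 9.44, 9.19 and 8.41 with hsp-6;hsf-1 RNAi, and the groups overlapped (difference 0.82, SE 0.31, adjusted p = 0.13). With empty vector hsp-60 read 9.81, 9.73 and 9.61. hrg-9, a gene of heme trafficking, read 8.58, 9.65 and 8.54 against 5.04, 7.53 and 6.74, a difference of -2.48 that missed the threshold (SE 0.67, adjusted p = 0.055). Both were singled out after their values were seen. None of 21 genes of endoplasmic reticulum stress was called (median -0.20, 1 higher and 1 lower at an unadjusted p below 0.05), and none of 17 stress transcription factors (median -0.23, 2 lower at an unadjusted p below 0.05).

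Beyond the chaperones, the largest falls were of genes of several kinds. The smallest adjusted p among them was that of rnh-1.3, an RNase H gene. It read 12.26, 12.53 and 12.26 with hsp-6 RNAi and 8.47, 8.69 and 7.97 with hsp-6;hsf-1 RNAi, a difference of -3.97 (SE 0.25, adjusted p = 5.1e-05), and held without any single array. The double RNAi arrays lay below the empty vector arrays too, which read 9.98, 10.05 and 9.22. pdfr-1, the receptor for PDF neuropeptides, read 8.27, 8.85 and 8 with hsp-6 RNAi and 4.54, 5.56 and 5.39 with hsp-6;hsf-1 RNAi. Its difference of -3.21 (SE 0.39, adjusted p = 0.0049) held without any single array, and the double RNAi level was near that with empty vector, 5.32, 4.80 and 3.95.

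Several of the large falls were in genes without a described function. K02A2.5 fell by 4.13 (adjusted p = 0.0091), F15B9.6 by 3.90 (adjusted p = 0.0025), W01C9.2 by 3.69 (adjusted p = 0.0023) and K01C8.2 by 3.52 (adjusted p = 0.0081), and these 4 held without any single array. W01C9.2 read 6.26, 6.68 and 6.20 with hsp-6 RNAi and 2.66, 2.73 and 2.68 in the double RNAi arrays. mbug-1 went from 11.73, 11.22 and 11.72 to 7.20, 7.70 and 8.07, a fall of 3.90 on the log2 scale (adjusted p = 0.0091). It was lost without hsp-6 replicate 1 or 3 or hsp-6;hsf-1 replicate 1. spi-2, a gene of the protease inhibitor class, fell by 3.56 (adjusted p = 0.028) and F01D5.2 by 3.28 (adjusted p = 0.032), both lost when any 1 hsp-6 array or hsp-6;hsf-1 replicate 1 or 3 was left out. clec-258, a C-type lectin gene, read 4.68, 6.59 and 5.49 with hsp-6 RNAi and lay within 0.1 of the deposited minimum in all 3 double RNAi arrays, at 2.16, at least 10.8-fold lower (adjusted p = 0.017). It was lost without hsp-6 replicate 2 or 3 or hsp-6;hsf-1 replicate 1 or 3. With low values set to log2 4 the differences of W01C9.2 and clec-258 were -2.38 and -1.59, both still called.

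The lists of energy and lipid metabolism described next had 1 to 4 calls each, to be read against 2.91% higher and 2.76% lower over all tested probe sets. In glycolysis 2 of 15 genes fell (13.3%) and none rose (median -0.14). They were ldh-1, lactate dehydrogenase, from 11.99, 11.90 and 11.95 to 9.65, 11.06 and 10.62 (difference -1.51, SE 0.35, adjusted p = 0.034), and aldo-1, an aldolase, from 10.88, 11.09 and 10.83 to 8.82, 9.89 and 10.22 (difference -1.29, SE 0.33, adjusted p = 0.046). Both stayed above the empty vector arrays, which read 9.30 to 9.77 for ldh-1 and 7.35 to 7.61 for aldo-1, except for ldh-1 in replicate 1, which fell among them. Of 25 genes of the tricarboxylic acid and glyoxylate cycles 2 rose (8%), idhg-2, an isocitrate dehydrogenase subunit, by 1.62 (adjusted p = 0.043) and dld-1, dihydrolipoamide dehydrogenase, by 0.70 (adjusted p = 0.04).

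Of 24 genes of fatty acid synthesis and desaturation 3 fell (12.5%) and none rose. fat-5, a delta-9 desaturase that acts on palmitic acid, read 11.24, 10.78 and 11.24 with hsp-6 RNAi and 9.26, 9.29 and 9.30 with hsp-6;hsf-1 RNAi. Its fall of 1.80 on the log2 scale (SE 0.24, adjusted p = 0.006) held without any single array, and the double RNAi arrays reached the level of the lowest empty vector array, 9.27. fat-7, which desaturates stearic acid, fell by 2.32 (SE 0.57, adjusted p = 0.041), from 10.23, 8.90 and 10.51 to 7.19, 8.07 and 7.40. acly-1, ATP citrate lyase, which supplies acetyl-CoA, fell by 0.87 (SE 0.19, adjusted p = 0.028). The next enzymes of that pathway did not pass the test. fasn-1, fatty acid synthase, read 8.31, 8.65 and 8.16 against 8.63, 8.39 and 8.52 (difference 0.14, SE 0.29, adjusted p = 0.8). pod-2, acetyl-CoA carboxylase, read 8.33, 8.15 and 8.22 against 7.75, 7.84 and 8.67 (difference -0.15, SE 0.28, adjusted p = 0.78), and its difference turned to 0.023 without hsp-6;hsf-1 replicate 1.

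In fatty acid activation and oxidation 2 of 48 genes rose and 2 fell. acdh-8, an acyl-CoA dehydrogenase gene, rose by 4.14 (SE 0.81, adjusted p = 0.02), from 2.86, 2.62 and 2.68 to 7.06, 5.65 and 7.89. It lay below log2 4 in every empty vector and hsp-6 array, so it passed the filter only through double RNAi arrays. acs-1, an acyl-CoA synthetase, fell by 1.25 (adjusted p = 0.049), and acdh-11, which in C. elegans takes part in the adaptation of membrane lipids to heat, fell by 0.75 (adjusted p = 0.028). Among 15 lipases lips-17 rose by 2.53 (adjusted p = 0.025) and lips-11 fell by 2.16 (adjusted p = 0.028), and among 15 lipid-binding proteins lbp-7 rose by 2.44 (adjusted p = 0.041). In sphingolipid metabolism 1 of 19 genes rose, the sphingosine kinase sphk-1, by 0.88 (adjusted p = 0.036), and 1 fell, the ceramide glucosyltransferase cgt-3, by 0.59 on the log2 scale (adjusted p = 0.043). The calls named here in energy and lipid metabolism, fat-5 excepted, were each lost when any 1 hsp-6 array was left out.

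Genes of the mitochondrion and of protein turnover gave mostly small differences. Of 57 mitochondrial ribosomal proteins 4 rose and none fell (median 0.18), by 1.11 to 1.2. mrpl-12 read 8.37, 7.68 and 8.49 with hsp-6 RNAi and 9.69, 9.57 and 8.88 with hsp-6;hsf-1 RNAi (difference 1.2, SE 0.29, adjusted p = 0.037). The empty vector arrays read 9.38, 9.55 and 10.02, and hsp-6;hsf-1 replicate 3 lay below them. mrps-12 rose by 1.13 (adjusted p = 0.031) and mrps-21 by 1.12 (adjusted p = 0.025). In the respiratory chain 2 of 39 genes rose (5.13%, against 2.91% of all tested probe sets). Of these, cyc-2.2 lay below log2 4 in every empty vector and hsp-6 array and passed the filter only through double RNAi arrays. cyc-2.2, a cytochrome c gene, went from 2.80, 3.00 and 2.65 to 7.97, 6.27 and 8.88 (difference 4.89, SE 0.90, adjusted p = 0.018), and lpd-5, a complex I subunit, from 10.99, 11 and 11.03 to 11.50, 11.65 and 11.42 (difference 0.51, SE 0.12, adjusted p = 0.031). None of 74 cytosolic ribosomal proteins was called (median 0.08, 14 higher and 1 lower at an unadjusted p below 0.05).

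Of 33 proteasome genes 1 rose (3.03%, near the 2.91% of all tested probe sets). rpn-6.2, which encodes a subunit of the proteasome lid, read 5.06, 5.16 and 5.14 with hsp-6 RNAi and 6.87, 6.87 and 6.71 with hsp-6;hsf-1 RNAi. The arrays of each group lay close together, and the rise of 1.70 (SE 0.19, adjusted p = 0.0025) held without any single array. With empty vector it read 6.11, 6.17 and 6.34, between both groups.

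Sperm transcripts were the group with the largest rise. All 23 major sperm protein (MSP) genes, whose products form the cytoskeleton of the crawling sperm, were tested, and 22 rose (95.7%), with a median difference of 5.57. msp-45 read 6.68, 3.08 and 6.85 with hsp-6 RNAi and 12.70, 11.05 and 12.52 with hsp-6;hsf-1 RNAi (difference 6.55, SE 1.31, adjusted p = 0.022). msp-50 and msp-49 rose by 6.11 (adjusted p = 0.021) and 5.89 (adjusted p = 0.016). hsp-6 replicate 2 was lower than replicates 1 and 3, and hsp-6;hsf-1 replicate 2 lower than the others of its group, yet the groups did not overlap for any of the 23, against 34.4% of all tested probe sets. The gene not called, msp-78, missed the threshold at an adjusted p = 0.051. All 23 representative probe sets carry the array's suffix for probes that can hybridise to several genes, so the 22 calls need not be of separate transcripts.

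The median MSP value was 7.39, 9.27 and 4.87 in the empty vector arrays, 7.90, 4.06 and 7.47 in the hsp-6 arrays, 12.87, 11.14 and 12.84 in the hsp-6;hsf-1 arrays, and 12.34, 13.15 and 9.88 with the label hsp-6;dve-1. The double RNAi arrays of both kinds were thus above all arrays of the other groups. The MSP calls depended on single arrays. None was left when any 1 hsp-6 array, hsp-6;hsf-1 replicate 1 or its replicate 3 was left out. There were 9 with empty vector replicate 1 left out, and 7 with replicate 1 of hsp-6;dve-1 left out. Without the outlying array of each double group 4 were called.

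Of 58 other sperm genes on the array 38 passed the filter and 21 of these rose, while none fell, with a median of 3.14 among those tested. A gene raised only in the double RNAi arrays could pass the filter through those arrays, so the share among tested genes is not that of the whole list. msd-4 and msd-2, small proteins related to MSP, rose by 5.98 (adjusted p = 0.016) and 5.95 (adjusted p = 0.028), and nspd-4, a small nematode-specific sperm gene, by 5.65 (adjusted p = 0.018). msd-4 read 5.33, 3.09 and 5.11 with hsp-6 RNAi and 10.86, 9.47 and 11.16 with hsp-6;hsf-1 RNAi. No call of this list was left when any 1 hsp-6 array or hsp-6;hsf-1 replicate 1 was left out, 1 was left without replicate 3, and 20 without the outlying array of each double group.

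**Figure D3:**
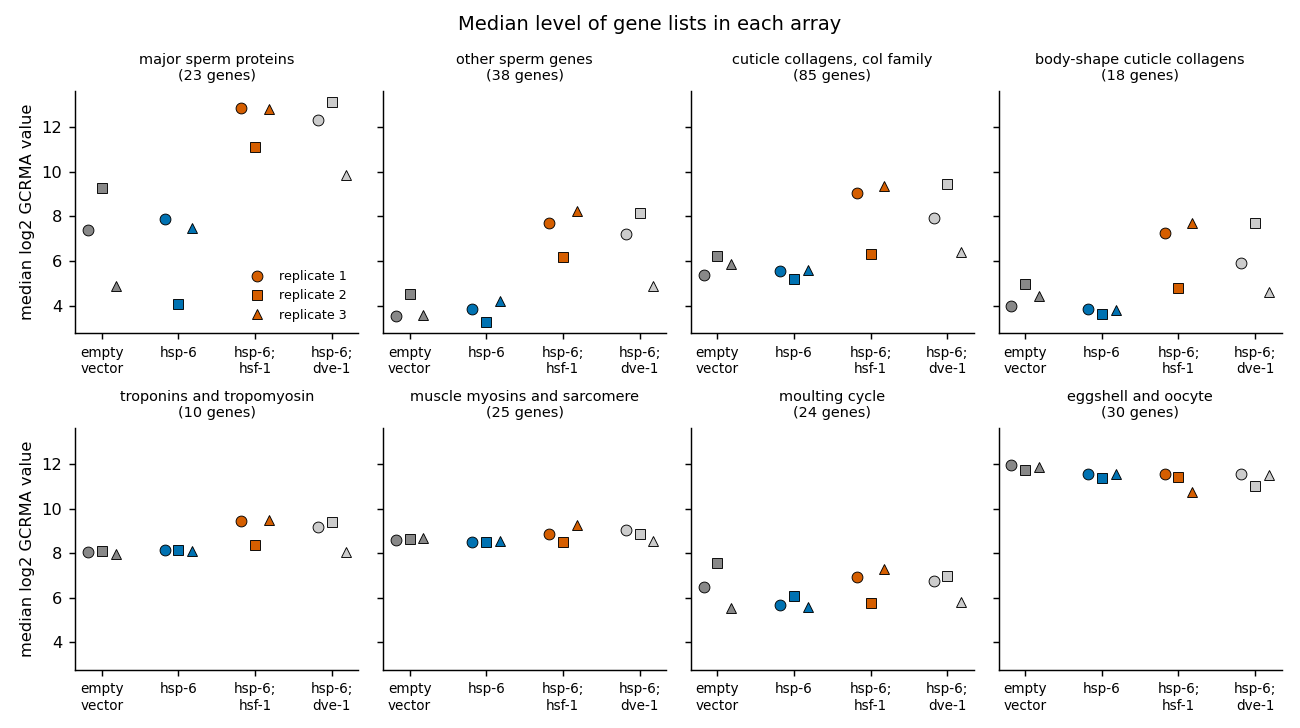
Median log2 value (y axis) of selected gene lists in each of the 12 arrays, grouped by RNAi (x axis), with 1 point per array. Major sperm proteins lie at 11.14 to 12.87 in the hsp-6;hsf-1 arrays and at 4.06 to 7.90 in the hsp-6 arrays, with hsp-6;hsf-1 replicate 2 the lowest of its group for sperm genes and collagens.

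Markers of males and of other germline stages were set beside the sperm genes. Of 14 genes of the male soma and seminal fluid, 9 were within 0.1 of the deposited minimum in all 6 arrays compared and 2 passed the filter. These were swm-1, a trypsin inhibitor of the seminal fluid, at 11.02, 11.40 and 11.11 against 11.17, 10.93 and 11.40 (difference -0.01, adjusted p = 0.99), and try-5, a seminal fluid protease, at 4.90, 5.01 and 4.57 against 4.33, 4.97 and 3.75 (difference -0.48, adjusted p = 0.49). Neither was called. None of 37 germline RNA regulators and meiosis genes was called (median -0.30, 2 higher and 5 lower at an unadjusted p below 0.05), none of 8 embryo markers (median 0.12, which was -0.053 after quantile normalization) and none of 31 histones (median -0.10).

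Of 30 eggshell and oocyte genes 1 rose and 1 fell (median -0.36). These shares, 3.33% each way, were near the 2.91% and 2.76% of all tested probe sets. cpg-9, a chondroitin proteoglycan gene, rose by 1.85 (SE 0.45, adjusted p = 0.038), and perm-2, which encodes a protein of the eggshell, fell by 0.52 (SE 0.12, adjusted p = 0.036). The summed linear level of the eggshell list was 141983 to 153245 in the hsp-6 arrays and 120862, 123072 and 79044.5 in hsp-6;hsf-1 replicates 1, 2 and 3. None of 5 yolk protein genes was called (median -0.30, 3 lower at an unadjusted p below 0.05).

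Many cuticle collagens rose too. Of 128 genes of the col family on the array 85 passed the filter. Of these 32 rose (37.6%, against 2.91% of all tested probe sets) and 1 fell, and the median was 2.03. A collagen raised only in the double RNAi arrays could pass the filter through those arrays. The share and median are thus not those of the whole family. col-81 read 5.21, 3.22 and 5.10 with hsp-6 RNAi and 11.83, 9.75 and 11.92 with hsp-6;hsf-1 RNAi, a difference of 6.65 (SE 1.17, adjusted p = 0.016). col-139 and col-129 rose by 6.59 (adjusted p = 0.015) and 6.38 (adjusted p = 0.025). The largest rises had wide error, and replicate 2 was again the lowest of the double RNAi arrays. The gene that fell was col-183, by 1.65 (adjusted p = 0.024), named here because it was the only one.

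For 3 collagens, singled out after their values were seen, the rise held without any single array. col-20 read 7.33, 7.25 and 7.56 with hsp-6 RNAi and 10.01, 9.93 and 10.41 with hsp-6;hsf-1 RNAi (difference 2.74, SE 0.28, adjusted p = 0.0023). col-124 read 11.60, 11.74 and 11.49 against 13.96, 13.65 and 14.30 (difference 2.36, SE 0.29, adjusted p = 0.0049), and col-93 rose by 2.22 (SE 0.29, adjusted p = 0.006). The probe sets of col-93 and col-124 carry the suffix for probes that can hybridise to several genes, as do 21 of the 85 in the list, so these need not be separate transcripts. The number of called collagens was 3 without hsp-6 replicate 1, 2 or 3 or without hsp-6;hsf-1 replicate 1, 6 without replicate 3, 61 without replicate 2 and 17 without the outlying array of each double group.

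The collagens named for body shape mutants rose in 4 of 18 cases, with a median of 1.49. dpy-13 read 12.01 to 12.41 with hsp-6 RNAi and 14.65, 13.80 and 14.74 with hsp-6;hsf-1 RNAi (difference 2.19, SE 0.33, adjusted p = 0.0097). dpy-4 rose by 2.16 (adjusted p = 0.029) and dpy-5 by 5.23 (SE 1.29, adjusted p = 0.041). dpy-5 read 3.80, 3.25 and 3.74 with hsp-6 RNAi and 10.51, 5.32 and 10.65 in the double RNAi arrays, with replicate 2 far below the others. None of 24 genes of the moulting cycle was called (median 0.34, 2 higher and 1 lower at an unadjusted p below 0.05). Among 31 hedgehog-related and patched-related genes, many of which act in the epidermis, grl-21 rose by 4.77 (adjusted p = 0.045) and grd-10 by 4.26 (adjusted p = 0.015), while wrt-5 fell by 1.08 (adjusted p = 0.041). Of 33 transthyretin-like genes 2 fell (6.06%, against 2.76% of all tested probe sets), ttr-29 by 2.16 (adjusted p = 0.017) and ttr-23 by 1.04 (adjusted p = 0.025).

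Some muscle genes rose as well. Of 10 troponin and tropomyosin genes 5 rose (50%, against 2.91% of all tested probe sets) and none fell, with a median of 1.2. tni-1, a troponin I gene, read 6.42, 6.06 and 6.38 with hsp-6 RNAi and 9.12, 7.69 and 9.13 with hsp-6;hsf-1 RNAi (difference 2.36, SE 0.46, adjusted p = 0.02). tnt-2 and mup-2, both troponin T genes, rose by 2.07 (adjusted p = 0.015) and 2.03 (adjusted p = 0.014). Of 25 myosin and sarcomere genes 3 rose (12%, median 0.68), namely unc-52, perlecan of the muscle basement membrane, by 1.79 (adjusted p = 0.036), mlc-1, a myosin light chain, by 1.55 (adjusted p = 0.045) and clik-1 by 1.46 (adjusted p = 0.011). No troponin call was left when any 1 hsp-6 array or hsp-6;hsf-1 replicate 1 was left out, 2 were left without replicate 3, and 4 without the outlying array of each double group.

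Intestinal markers rose in 4 of 28 cases (14.3%, against 2.91% of all tested probe sets) and fell in none, with a median of 0.16. pept-1, the intestinal peptide transporter, read 5.63, 5.35 and 5.31 with hsp-6 RNAi and 8.30, 7.98 and 9.95 with hsp-6;hsf-1 RNAi (difference 3.31, SE 0.68, adjusted p = 0.024). cpr-1, a cathepsin B-like protease of the gut, rose by 2.80 (adjusted p = 0.015) and nhx-2, a sodium-proton exchanger, by 2.65 (adjusted p = 0.036). The summed linear level of the list did not separate the groups, at 105309 to 125374 with hsp-6 RNAi and 94145 to 179876 with hsp-6;hsf-1 RNAi.

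Of 67 neuropeptide and insulin-like genes 2 rose and none fell (median 0.58). The share of rises, 2.99%, was near the 2.91% of all tested probe sets, and nothing is read from this list as a whole. nlp-33, an antimicrobial peptide gene of the epidermis, read 7.35, 7.77 and 7.34 with hsp-6 RNAi and 10.12, 9.69 and 10.35 with hsp-6;hsf-1 RNAi. Its rise of 2.57 (SE 0.34, adjusted p = 0.006) held without any single array. nlp-26 rose by 2.63 (SE 0.63, adjusted p = 0.037). None of 14 neuron markers was called (median 0.20, 3 higher and 2 lower at an unadjusted p below 0.05).

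The other large rises were of genes of metabolism and defence and of genes without a described role. sdz-24, a gene first found by its dependence on the transcription factor SKN-1 in the embryo, had the largest difference as deposited. It read 3.06, 3.05 and 2.96 with hsp-6 RNAi and 10.74, 7.74 and 11.20 with hsp-6;hsf-1 RNAi (difference 6.87, SE 1.14, adjusted p = 0.015). With low values set to log2 4 the difference was 5.90, below that of adh-1, so the order of the largest rises depends on values under the filter. adh-1, an alcohol dehydrogenase, read 6.29, 5.91 and 6.10 against 13.17, 11.12 and 13.74 (difference 6.57, SE 1.45, adjusted p = 0.029). Among the empty vector arrays it varied by more than among the hsp-6 arrays, at 12.62, 7.88 and 6.04, and replicate 1 there overlapped the double RNAi arrays.

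fmo-2, a flavin-containing monooxygenase that extends lifespan in C. elegans when raised, read 2.33, 2.18 and 2.19 with hsp-6 RNAi, where 2 arrays were near the deposited minimum. In the double RNAi arrays it read 7.17, 7.42 and 11.28 (difference 6.39, SE 1.31, adjusted p = 0.024), with replicate 3 far above the others. With low values set to log2 4 its difference was 4.62 and not called (adjusted p = 0.0504). clec-60, a C-type lectin gene induced by Gram-positive pathogens, read 3.74, 3.58 and 4.51 against 9.98, 7.60 and 12.45 (difference 6.07, SE 1.00, adjusted p = 0.014). T22F3.11, F58A6.9, dbd-13 and C23G10.11 rose by 6.27 (adjusted p = 0.036), 6.20 (adjusted p = 0.025), 6.09 (adjusted p = 0.018) and 5.97 (adjusted p = 0.026). Every one of the 15 largest rises was lost when any 1 hsp-6 array or hsp-6;hsf-1 replicate 1 was left out.

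Calls among detoxification and defence genes went in both directions. The shares called in the UDP-glucuronosyltransferases (2.38% higher, 4.76% lower), nuclear hormone receptors (0.926% and 2.78%), C-type lectins (3.28% each way) and F-box genes (2.33% and 3.49%) were near those over all probe sets, 2.91% and 2.76%, and nothing is read from these 4 families as wholes. Of 42 UDP-glucuronosyltransferases, which conjugate small molecules for excretion, 2 fell and 1 rose. ugt-1 went from 7.34, 7.19 and 7.72 to 4.47, 4.80 and 4.18, a fall of 2.93 on the log2 scale (SE 0.39, adjusted p = 0.006) that held without any single array. ugt-27 fell by 2.73 (adjusted p = 0.011) and ugt-47 rose by 1.93 (adjusted p = 0.046). Of 27 glutathione transferases 3.70% rose and 7.41% fell. gst-28 rose by 3.45 (adjusted p = 0.018), and gst-24 and gst-1 fell by 1.57 (adjusted p = 0.032) and 0.85 (adjusted p = 0.03). Of 41 cytochrome P450 genes cyp-36A1 fell by 2.53 (adjusted p = 0.041) and cyp-35D1 by 1.56 (adjusted p = 0.046). In superoxide, peroxide and metal defence 1 of 21 fell, the cadmium-responsive cdr-4, from 12.89, 13.48 and 12.70 to 9.70, 11.74 and 9.69 (difference -2.65, SE 0.62, adjusted p = 0.035).

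Of 108 nuclear hormone receptors 3 fell and 1 rose. nhr-57, a known target of the hypoxia factor HIF-1, fell by 1.62 (adjusted p = 0.046), nhr-132 by 2.44 (adjusted p = 0.025) and nhr-84 by 1.21 (adjusted p = 0.028). The riser was nhr-4, by 0.99, which lies outside the naming rule and is named because it was the only one. Among 61 C-type lectins 2 rose and 2 fell, clec-227 by 3.39 upward (adjusted p = 0.038) beside clec-60 and clec-258 above. Of 56 defence effectors 3 rose (5.36%, against 2.91% of all tested probe sets) and 5 fell (8.93%, against 2.76%). Those that rose were the saposin-like spp-4 by 3.15 (adjusted p = 0.037), the lysozyme lys-4 by 2.79 (adjusted p = 0.022) and fipr-21 by 2.39 (adjusted p = 0.02). The 5 that fell, named after their values were seen, were cnc-2, cnc-4, cnc-6, abf-1 and spp-24, with differences of -1.35 to -2.34. 3 of them are of the caenacin antimicrobial peptide family, and nothing is read from that family as a whole. In this list at most 1 call each way was left when any 1 hsp-6 array or hsp-6;hsf-1 replicate 1 or 3 was left out. Of 86 F-box A and B genes fbxa-157 rose by 2.40 (adjusted p = 0.048) with 1 other, while fbxa-161 fell by 2.15 (adjusted p = 0.024) and fbxa-107 fell by 2.09 (adjusted p = 0.0091) with 1 other.

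Among 29 autophagy and mitophagy genes pdr-1, the worm parkin, fell by 0.84 (SE 0.16, adjusted p = 0.018), from 11.30, 11.56 and 11.32 to 10.65, 10.71 and 10.30. Of 17 Argonautes hrde-1, which carries heritable silencing in germline nuclei, fell by 0.97 (adjusted p = 0.045), and the median of the list was -0.57. Phospholipid synthesis and methionine cycle genes (21 tested, median 0.06) and pals genes (12 tested, median 0.32) had no call. In all, 14 of 48 lists had none.

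**Figure D4:**
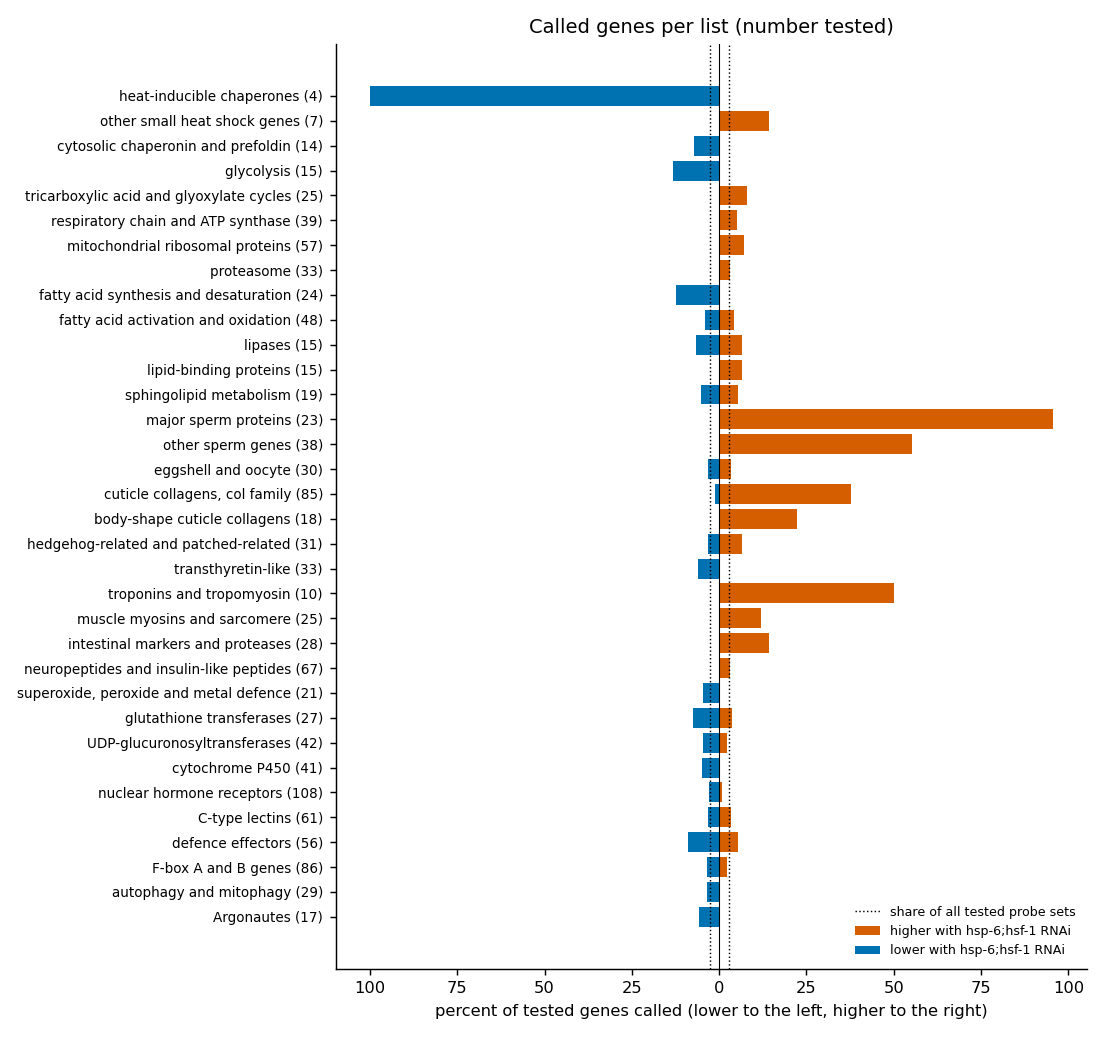
Share of tested genes called higher and lower in hsp-6;hsf-1 against hsp-6 RNAi (x axis, percent) for each gene list with a call (y axis). The shares over all tested probe sets are drawn as a reference. Major sperm proteins, other sperm genes, troponins and cuticle collagens have the largest shares of rises, and the heat-inducible chaperones the largest share of falls.

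The groups of arrays outside the comparison place these levels. Against empty vector, hsp-6;hsf-1 RNAi gave 0 called probe sets (0%) with limma, although 3593 had an unadjusted p below 0.05. hsp-6 RNAi against empty vector gave 330 (2.74%). Since these comparisons share arrays with the one described here, their values are given only beside those of single genes. hsp-16.41 was 0.02 above the empty vector mean in the hsp-6;hsf-1 group (adjusted p = 0.99) and 5.72 above it in the hsp-6 group (adjusted p = 0.0027). hsp-70 was 0.95 above it (adjusted p = 0.26) and 6.46 above it (adjusted p = 0.00056). rnh-1.3 was 1.38 below it, written as a difference of -1.38 (adjusted p = 0.085), and 2.60 above it (adjusted p = 0.0006).

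Set against the other double RNAi arrays, labelled hsp-6;dve-1, hsp-6;hsf-1 RNAi differed in 28 probe sets (0.232%), of which 27 were lower and 1 was higher, and 277 had an unadjusted p below 0.05. The genes from here on were chosen after their values were seen. fbxa-75, an F-box gene, read 2.16 to 2.17 in the hsp-6;hsf-1 arrays and 7.68, 6.13 and 10.32 in the others (difference -5.88, adjusted p = 0.0086). pals-5 and pals-11, which belong to a gene family that responds to intracellular pathogens, read 2.16 to 2.98 and 2.16 in the hsp-6;hsf-1 arrays and 5.70 to 9.12 and 5.31 to 9.12 in the others (differences -4.36 and -4.53, adjusted p = 0.039 each). fbxa-75, pals-5 and pals-11 were above log2 4 only in the hsp-6;dve-1 arrays and passed the filter only through them. fbxa-75 and pals-11 lay within 0.1 of the deposited minimum in all 3 hsp-6;hsf-1 arrays, and pals-5 in 1. clec-52 differed by -4.41 (adjusted p = 0.02). gst-39, a glutathione transferase, read 8.04, 8.93 and 8.16 against 11.46, 12.79 and 12.74 (difference -3.95, adjusted p = 0.006). The gene that was higher was Y47H10A.5, at 4.49, 4.73 and 5.21 against 3.10, 2.47 and 3.10 (difference 1.92, adjusted p = 0.029). It was above log2 4 only in the hsp-6;hsf-1 arrays and passed the filter only through them.

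Between both double RNAi groups no difference was called for the heat-inducible chaperones. hsp-70 read 9.08, 9.27 and 9.65 under the hsp-6;dve-1 label, above the 7.16, 6.10 and 9.01 of the hsp-6;hsf-1 arrays without overlap (difference -1.91, adjusted p = 0.81). hsp-16.2 differed by -1.17 and hsp-16.41 by -1.26 (adjusted p = 1 each). hsp-6 differed by -0.19 (adjusted p = 1).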

How the data were processed

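Total RNA from 12 samples was measured on 1-colour Affymetrix arrays. The deposited values are log2 expression values; per the submitters' processing notes the authors used GCOS 1.4 and GCRMA, with no version or settings of GCRMA given in the sources used here. Arrays have no count depth, so their number limits the precision. Values start at a deposited minimum of 2.16, and a fold against it is a lower bound.

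Of 22625 probe sets, 77 controls were left out. The platform annotation gave 1 symbol to 20766, several to 887 and none to 895, and 20701 were found in a RefSeq table. Those with several were counted without being named. 12057 passed the filter of log2 above 4 in at least 3 of 12 arrays.

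limma 3.58.1 (R 4.3.3) fitted 4 group means to 12 arrays with an intensity trend (8 residual and 3.16 prior degrees of freedom), with Benjamini-Hochberg adjustment over all tested probe sets and two-sided tests. The test was tried on simulated data with known changes. In the lists each gene stands with its brightest probe set.

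The comparison and its members, the 48 gene lists and the naming rule were chosen with earlier results of these data known, and the Argonaute and fatty acid oxidation lists were corrected after non-members were seen in them. Named are the RNAi targets, the heat-inducible chaperones, fasn-1, pod-2, the 15 largest called rises and falls with 1 symbol and no overlap between arrays, and the 3 largest called members of each list. 1 gene that the rule names is not reported here. Other genes are said to have been singled out. The alternatives tried were each array left out, quantile normalization, median centring, no filter, a log2 minimum of 6, a floor of log2 4, robust fitting, no trend, a replicate block and a fit of only the 2 groups. 3 more were added after the data had been seen. Probe positions and sequences were not used here. Python 3.11.15 and matplotlib 3.10.9 drew the figures.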

Additional observations from a re-analysis of the deposited data

How the results depend on the processing

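The direction of all 99 named calls was kept under every alternative in which they were tested, but their number was not. The total of 684 called probe sets (351 higher, 333 lower) ranged from 35 to 1433 with single arrays left out, with 10 to 821 higher and 24 to 612 lower. Without the filter it was 223 (49 higher, 174 lower), with only the compared groups in the fit 448 (176 lower), and with hsp-6 replicates 1 and 3 averaged into 1 array, a choice made after seeing the data, 35 (10 higher, 25 lower). With the replicate number as a block it was 327 (164 higher, 163 lower). The labels do not say that the numbers pair samples, and whether they do was not tested. Deviations of same-numbered arrays of the 2 groups correlated at 0.35, 0.085 and -0.096. Over all 4 groups, pairs of replicate 1 arrays correlated at 0.098 to 0.61. Pairs of replicate 2 and of replicate 3 arrays went both ways, from -0.74 to 0.25 and from -0.76 to 0.11. The total was 628 with a minimum of log2 6, 562 with the floor of log2 4, 746 with median centring, 736 with quantile normalization, 561 without the trend and 698 with robust fitting. Leaving out both outlying double RNAi arrays gave 722 and leaving out the hsp-6;dve-1 arrays 914, both added after seeing the data. The dimmer probe set of dve-1 turned from 0.22 to -0.0847 with quantile normalization, and pod-2 from -0.15 to 0.023 without hsp-6;hsf-1 replicate 1, its range with single arrays left out being -0.44 to 0.023, neither called under any setting; the cause was not tested. Without any single array 29 probe sets held, 8 higher and 21 lower. The number of arrays, and values near the deposited minimum, limit what can be called.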

Other observations

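Among the 29 probe sets that held without any single array were some outside the lists, named here after their values were seen. The filter was set once on all 12 arrays and was not renewed when an array was left out. Y32H12A.1, npr-42, cutl-27 and the F14H12.3 probe set that fell by 3.05 were above log2 4 only in the hsp-6 arrays. They passed the filter only through those arrays, so for them holding without an hsp-6 array still rests on that array. Y32H12A.1 read 5.44, 5.61 and 5.19 with hsp-6 RNAi and 2.30, 2.47 and 2.33 with hsp-6;hsf-1 RNAi (difference -3.04, SE 0.24, limma adjusted p = 0.0004), and the empty vector arrays read 2.35, 2.32 and 2.65. Both probe sets of F14H12.3 fell, by 3.05 (adjusted p = 0.0091) and 2.99 (adjusted p = 0.006). npr-42, a neuropeptide receptor gene, read 4.85, 4.82 and 4.49 against 2.79, 3.09 and 2.93 (difference -1.78, adjusted p = 0.006). spig-3 differed by -1.84 (adjusted p = 0.0075) and pqn-73 by -2.53 (adjusted p = 0.006). cutl-27, a cuticlin-like gene, read 4.26, 4.85 and 4.45 with hsp-6 RNAi and 2.16, 2.62 and 2.16 in the double RNAi arrays, where 2 of 3 were at or near the deposited minimum (difference -2.21, adjusted p = 0.0048). nsph-3.1 was the largest rise among the 29, from 3.38, 2.92 and 3.37 to 9.33, 7.76 and 9.50 (difference 5.64, SE 0.80, adjusted p = 0.0086).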
